A study of Mus musculus with 12 samples.

Results

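The genes described here are 39 genes of hepatic stellate cells and the extracellular matrix, taken by symbol from a table of 48537 genes measured by RNA-seq in whole mouse liver. They comprise stellate cell markers, collagens, proteoglycans, cross-linking enzymes, and matrix proteases with their inhibitors. All 39 were found in the table. The study compared 3 groups of 4 livers collected 10 h after lights on. Control livers have the genotype wildtype and titles that name YFP, a fluorescent protein. A second group is labelled as a double knockout (DKO) of the REV-ERBs, again with YFP in the titles. The third group carries the same double knockout and re-expresses wild-type REV-ERBalpha. The table's own column names are YFP, YFP with Cre (a recombinase), and YFP with WT. They were matched here to control, DKO and re-expression livers through the sample titles and the group names given to the table, since no label spells the match out, and every group value rests on it. Which promoter or cell type drives Cre or REV-ERBalpha, and the strain, sex and age of the mice, are named by none of the sources used here. Cre and the loss of REV-ERB cannot be told apart between control livers and DKO-labelled livers.

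Stellate cells lie between the hepatocytes and the sinusoidal endothelium. They store vitamin A as retinyl esters, and after injury they turn into myofibroblasts that secrete fibrillar collagen. In healthy liver they also supply much of the thin matrix around the sinusoids, while endothelial cells, portal fibroblasts and hepatocytes make other parts of it. REV-ERBalpha and REV-ERBbeta are nuclear receptors of the circadian clock that repress transcription, in many genes through a site called the RORE that contains AGGTCA.

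Values are in TPM, read counts scaled to gene length and then to the same total in each library. The libraries held 5621667 to 6906221 reads each. The gene of REV-ERBalpha, Nr1d1, stood at 68.7 ± 5.53 TPM in control livers, 82.5 ± 7.39 in DKO-labelled livers and 191 ± 22.4 in re-expression livers (SD, n = 4, as throughout). Nr1d2 stood at 96.6 ± 14.9, 90.4 ± 7.91 and 97.7 ± 15.1 TPM. Sums over a whole gene can hold reads from outside a deleted part, so these values do not check the deletion, and the group is called here by its label, as DKO-labelled livers.

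A difference is called where limma's adjusted p (Benjamini-Hochberg over 17957 tested genes) was under 0.05. Between DKO-labelled livers and control livers 8 members were called higher and 1 lower, of 35 tested, where 2.99% of all tested genes were called higher and 2.34% lower. Lrat, Reln, Colec11, Col14a1, Bgn, Dcn, Lum and Timp3 rose, and Col15a1 fell. The 9 called members are 25.7% of those tested, against 5.33% of all tested genes. The median log2 difference was 0.40 over the 35 members and 0.0011 over all tested genes. Above 0 were 33 of the 35 members and 50.2% of all tested genes. After re-expression of REV-ERBalpha no member was called against the DKO-labelled livers. Against control livers, Reln was called higher and Col15a1 lower.

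The regions before the starts of 3 called members are shown because their calls moved least with the settings. Lrat and Reln rose and Col15a1 fell. They come from RefSeq on GRCm38.p6, the build mm10, and run 5′ to 3′ over the 250 bases before the start. Capitals mark an E-box, CACGTG, the site through which clock activators act, 71 bases before the start of Reln. The windows are chr3:82903975-82904224 on the minus strand for Lrat, chr5:22344706-22344955 on the minus strand for Reln and chr4:47207762-47208011 on the plus strand for Col15a1.
Lrat: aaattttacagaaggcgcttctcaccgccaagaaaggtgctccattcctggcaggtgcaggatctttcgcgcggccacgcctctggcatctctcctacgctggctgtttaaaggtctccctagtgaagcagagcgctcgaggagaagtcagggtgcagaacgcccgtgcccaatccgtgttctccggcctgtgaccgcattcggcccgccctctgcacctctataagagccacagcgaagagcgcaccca
Reln: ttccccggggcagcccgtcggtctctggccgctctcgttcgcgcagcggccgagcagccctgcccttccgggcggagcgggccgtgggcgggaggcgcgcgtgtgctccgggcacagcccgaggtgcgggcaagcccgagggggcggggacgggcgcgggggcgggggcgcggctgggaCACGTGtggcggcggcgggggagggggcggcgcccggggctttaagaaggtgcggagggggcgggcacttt
Col15a1: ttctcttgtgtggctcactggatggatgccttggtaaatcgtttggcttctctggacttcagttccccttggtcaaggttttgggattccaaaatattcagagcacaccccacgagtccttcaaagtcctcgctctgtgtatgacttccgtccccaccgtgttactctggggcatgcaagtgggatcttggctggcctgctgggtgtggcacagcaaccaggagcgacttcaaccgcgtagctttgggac

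Of the 39 members 27 have a promoter in that table, 30 promoters in all. None of the 30 holds AGGTCA on either strand, a sequence found in 14.0% of all 32851 promoters over the same 250 bases. The longer RORE, for which GGGTCA was also accepted in place of AGGTCA, was found in 0.332% of all promoters and in none of the members. The CArG box of smooth muscle genes was counted only in its strict form, with A or T at every place between CC and GG. That form was found in 1.47% of all promoters and in no member. The window before Acta2 holds ccctatatgg and ccttgtttgg, which each have another letter between CC and GG and were not counted. TGANTCA, the AP-1 site, was found in 6.75% of all promoters and in that of Col6a1. The E-box was found in 6.02% of all promoters and, among members, before Reln. These matches describe the letters in this window only, and no binding was measured.

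The stellate cell genes come next. Lrat encodes the enzyme that esterifies retinol for storage (chromosome 3, 82892579 to 82903973, minus strand, mm10). It stood at 13.1, 11.2, 14.3 and 20.6 TPM in control livers 1 to 4, at 27.6, 33.5, 24.4 and 29.3 in DKO-labelled livers, and at 20.1, 23.4, 15.2 and 16.3 in re-expression livers. Every DKO-labelled liver was above every liver of both other groups, while re-expression livers overlapped control livers. On the scale of log2(TPM + 1), Lrat rose by 0.94 ± 0.18 (SE, limma adjusted p = 0.0127), 1.94-fold between group means. This call held in 24 of 25 alternatives and was lost without the pair of control replicates 1 and 2 (adjusted p = 0.101). The difference of re-expression livers from DKO-labelled livers was -0.60 ± 0.18 (adjusted p = 0.427) and from control livers 0.34 ± 0.18 (adjusted p = 0.509).

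Reln encodes reelin, a large secreted glycoprotein that stellate cells make in liver (chromosome 5, 21884454 to 22344702, minus strand). It stood at 22.7, 27.5, 23.0 and 32.5 TPM in control livers, 48.4, 43.0, 47.0 and 43.5 in DKO-labelled livers and 46.7, 43.5, 35.7 and 34.8 in re-expression livers. Control livers lay below all livers of the other groups, which overlapped each other. Reln rose by 0.77 ± 0.13 between DKO-labelled livers and control livers (adjusted p = 0.0046). It was also called in re-expression livers against control livers, by 0.59 ± 0.13 (adjusted p = 0.0389, 0.00741 to 0.152 over the alternatives). In 16 of 25 alternatives it was no longer called, which include leaving out control replicate 1, 2 or 3, or any single liver of the other groups.

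Colec11 encodes a soluble lectin of the complement system. It stood at 43.4, 53.2, 45.9 and 63.1 TPM in control livers, 74.6, 77.2, 74.4 and 65.6 in DKO-labelled livers and 72.6, 70.2, 60.9 and 70.1 in re-expression livers. Control replicate 4 came closest to the DKO-labelled livers. Colec11 rose by 0.51 ± 0.11 (SE, adjusted p = 0.0228) and was not called when control replicate 1 or 3, or DKO replicate 1, 2 or 3, was left out. Its relative Colec10 stood at 24.8 to 33.8 TPM in control livers and at 37.9 to 42.3 in DKO-labelled livers, with no overlap and no call. It was called in 6 of 25 alternatives: size factors, quantile normalization, voom, a mean TPM of at least 5, and without control replicates 1 and 2 or re-expression replicate 1. Re-expression livers held 28.2 to 40.1 TPM of Colec10.

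The other 8 stellate cell members were not called in any comparison. Des encodes desmin, an intermediate filament protein. It stood at 2.34, 2.23, 2.57 and 2.96 TPM in control livers, 4.78, 3.83, 4.78 and 4.04 in DKO-labelled livers and 1.57, 3.23, 3.42 and 4.24 in re-expression livers. The DKO and control livers did not overlap, but the difference of 0.60 ± 0.20 was not called (adjusted p = 0.126, 0.029 to 0.347 in the alternatives, and under 0.05 only without re-expression replicate 1). Vim, another intermediate filament gene, also did not overlap, with 8.90 to 12.3 TPM against 12.4 to 13.6. Pdgfrb encodes a receptor that drives stellate cell growth. It ranged from 7.58 to 11.4 TPM in control livers and from 8.41 to 13.6 in DKO-labelled livers (log2 difference 0.24 ± 0.15, adjusted p = 0.438).

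Acta2 encodes the smooth muscle actin that marks myofibroblasts. It was low in every group, at 0.687 to 1.67 TPM in control livers, 0.654 to 2.90 in DKO-labelled livers and 1.07 to 3.08 in re-expression livers, from 3 to 15 reads per library. The DKO difference of 0.28 ± 0.30 was not called (adjusted p = 0.688), and DKO livers ranged 4.43-fold among themselves. Hand2, a transcription factor gene, and Ngfr, a neurotrophin receptor gene, also stayed under 5 TPM in every liver. Hgf, the hepatocyte growth factor gene, ranged from 14.0 to 17.2 TPM in control livers and from 16.7 to 21.6 in DKO-labelled livers. Of the 11 stellate cell members 3 were called higher and all 11 were above 0, with a median of 0.28. Of all tested genes 2.99% were called higher and 50.2% were above 0.

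**Figure D1:**
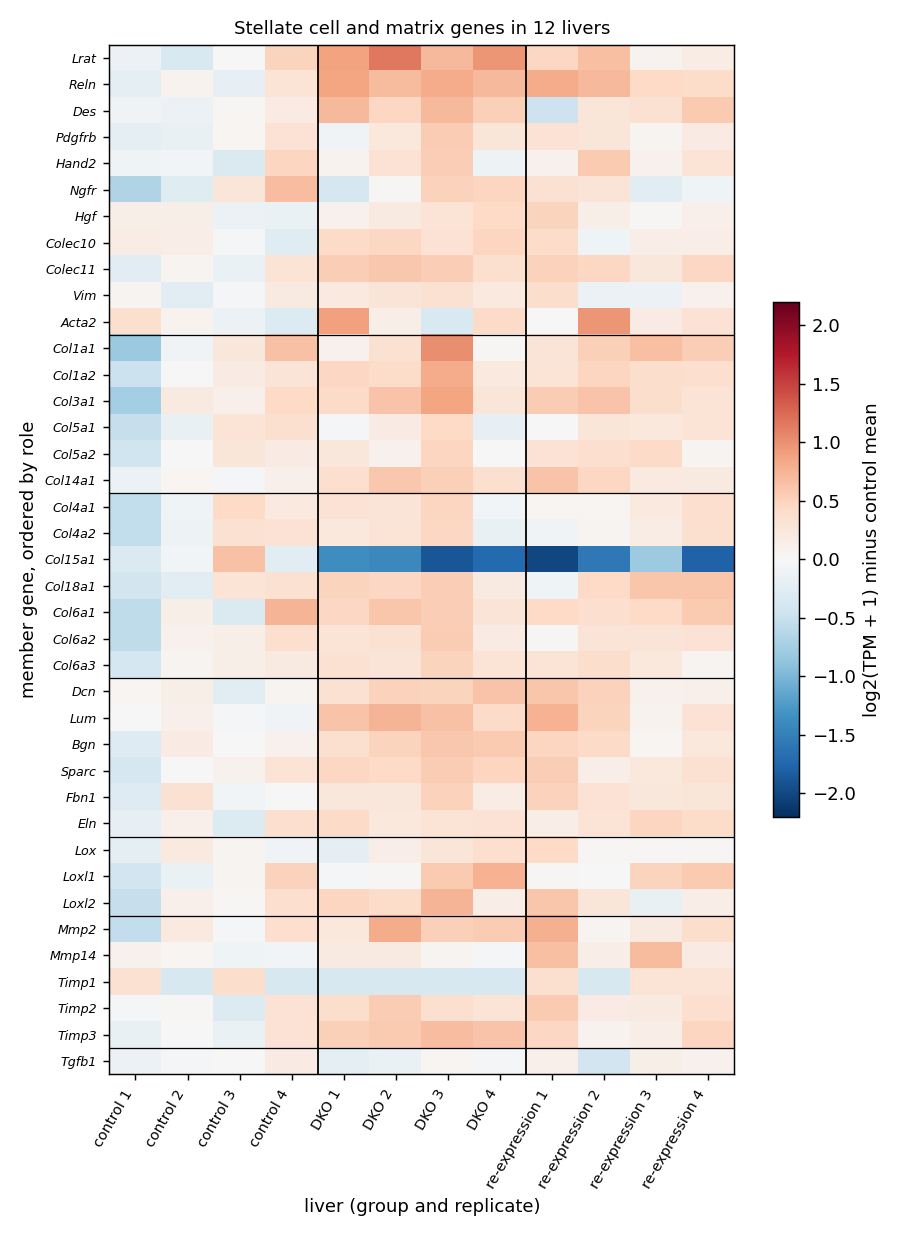
Each row is 1 of the 39 members, ordered by role, and each column 1 of 12 livers. Colour gives log2(TPM + 1) minus the mean of the 4 control livers, red above and blue below. Most rows are red in the DKO columns, control liver 1 is pale blue or blue for most collagens, and Col15a1 is blue in all 8 livers of the other groups.

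Fibrillar collagens form the tensile fibres of scar and of portal matrix. Of 6 fibrillar and associated collagen members, Col14a1 was called. It encodes a collagen that binds to the surface of fibrils. Its values were 42.4, 48.3, 46.1 and 50.2 TPM in control livers, 60.3, 70.7, 67.4 and 59.8 in DKO-labelled livers and 72.8, 64.5, 54.5 and 53.7 in re-expression livers. Control livers lay below all others. The rise was 0.46 ± 0.10 in DKO-labelled livers (SE, adjusted p = 0.0282), which was not called when control replicate 1, 2 or 3, or DKO replicate 2 or 3, was left out. The difference of re-expression livers from control livers was 0.38 ± 0.10 (adjusted p = 0.112).

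The chains of type I collagen, the main protein of liver scar, were not called. Col1a1 stood at 2.42, 4.67, 6.17 and 8.41 TPM in control livers, 5.46, 6.55, 11.2 and 5.14 in DKO-labelled livers and 6.33, 7.61, 8.56 and 7.74 in re-expression livers. The control livers alone spanned a 3.47-fold range, which holds 3 of the 4 DKO-labelled livers. The log2 difference was 0.37 ± 0.29 (adjusted p = 0.563), and -0.081 without control replicates 1 and 2. Col1a2 differed by 0.47 ± 0.17 (adjusted p = 0.159). Col3a1, of type III collagen, stood at 11.4, 23.0, 21.7 and 27.3 TPM in control livers and at 27.1, 31.4, 37.3 and 24.1 in DKO-labelled livers (0.55 ± 0.22, adjusted p = 0.212). Control replicate 1 was the lowest of the 12 livers for these 3 genes and DKO replicate 3 the highest.

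Basement membrane collagens line vessels and, thinly, the sinusoids. Col15a1 was the 1 member called lower. It encodes type XV collagen, a non-fibrillar collagen of the basement membrane zone (chromosome 4, 47208161 to 47313167, plus strand). It stood at 6.91, 8.51, 14.4 and 7.29 TPM in control livers, at 2.82, 2.7, 1.7 and 2.04 in DKO-labelled livers and at 1.46, 2.34, 4.72 and 1.87 in re-expression livers. Every control liver was above every other liver. Col15a1 fell by 1.59 on the log2 scale in DKO-labelled livers (SE 0.28, limma adjusted p = 0.00712), to 0.25 of the control mean. All 24 alternatives that tested it kept this call.

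In re-expression livers Col15a1 was again lower than in control livers, with a log2 difference of -1.54 ± 0.28 (adjusted p = 0.0171, 0.00182 to 0.0749 over the alternatives). This was no longer called without re-expression replicate 4, without either pair of control livers, or with only the 8 libraries compared. Against DKO-labelled livers the difference was 0.05 ± 0.28. Libraries held 21 to 194 reads of Col15a1. It shares 14 of its 6349 exon bases with a gene model on the opposite strand.

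Type XVIII collagen, from Col18a1, is the closest relative of type XV collagen, and hepatocytes make it. It held most of the collagen RNA per length: 68.1% to 78.4% of the summed TPM of the 13 collagen members in every liver. Its values were 347, 390, 571 and 583 TPM in control livers, 650, 630, 673 and 526 in DKO-labelled livers and 429, 624, 706 and 702 in re-expression livers. Control replicates 3 and 4 lay within the range of the re-expression livers, and the gene was not called. Without Col18a1 the other 12 collagens summed to 119 to 199.6 TPM in control livers, 175 to 239 in DKO-labelled livers and 195 to 202 in re-expression livers.

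Col4a1 and Col4a2 encode the chains of the commonest basement membrane collagen and start 21 bases apart on opposite strands of chromosome 8, by RefSeq. Their levels went together from liver to liver. Col4a1 stood at 18.8, 25.9, 37.9 and 32.2 TPM and Col4a2 at 16.8, 23.0, 31.7 and 31.5 TPM in control livers 1 to 4. In DKO-labelled livers they stood at 34.7, 34.2, 39.2 and 26.6 and at 29.6, 31.0, 34.4 and 22.2 TPM. Neither was called. Of the microfibrillar collagens, Col6a1, Col6a2 and Col6a3, none was called either, though Col6a1 was called without control replicate 4. Col6a3 alone did not overlap, with 4.001 to 6.53 TPM in control livers and 7.01 to 8.18 in DKO-labelled livers. Among the 12 collagens other than Col15a1, 12 were above 0 and 1 was called higher, with a median of 0.36. Of all tested genes 50.2% were above 0 and 2.99% were called higher.

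Small leucine-rich proteoglycans bind collagen fibrils and set their spacing. All 3 in the set were called higher in DKO-labelled livers, as were 2.99% of all tested genes. Dcn, of decorin, held 71.9, 76.6, 59.1 and 72.6 TPM in control livers, 87.9, 99.1, 98.5 and 108 in DKO-labelled livers and 106, 98.9, 74.8 and 75.6 in re-expression livers. Lum, of lumican, held 8.52, 9.17, 8.13 and 7.93, then 13.6, 14.8, 13.8 and 11.6, then 15.1, 12.2, 8.89 and 10.8 TPM. Bgn, of biglycan, held 28.9, 39.8, 35.2 and 37.7, then 44.9, 50.0, 53.3 and 53.1, then 49.3, 47.5, 36.2 and 41.3 TPM. In each gene all DKO-labelled livers were above all control livers. Re-expression replicates 1 and 2 lay near the DKO-labelled livers, and replicates 3 and 4 nearer to control livers.

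Lum rose by 0.61 ± 0.14 in DKO-labelled livers (SE, limma adjusted p = 0.0274), Bgn by 0.50 ± 0.12 (adjusted p = 0.0327) and Dcn by 0.49 ± 0.13 (adjusted p = 0.0483). Dcn was not called in 15 of 25 alternatives, which include leaving out any single control or DKO-labelled liver. Without re-expression replicate 2 it was not called either, and over all alternatives its adjusted p ran from 0.0134 to 0.144. The calls of Lum and Bgn were lost in 8 and 10 alternatives, both when DKO replicate 2 or 3, or control replicate 1 or 3, was left out. Lum was also lost on leaving out control replicate 4 or DKO replicate 1, and Bgn on leaving out DKO replicate 4. Sparc, whose product binds collagen, stood at 31.8 to 51.1 TPM in control livers and at 56.8 to 61.7 in DKO-labelled livers, with no overlap and no call. Sparc was called in 6 of 25 alternatives: array weights, voom, a mean TPM of at least 5, and on leaving out control replicates 3 and 4, control replicate 4 alone or re-expression replicate 1. Fbn1, of fibrillin-1 microfibrils, ranged from 2.58 to 4.45 and from 3.87 to 5.19 TPM, and shares 2442 of its 12128 exon bases with a gene model on the opposite strand. Eln, of elastin, was under 1 TPM in every liver and was not tested.

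**Figure D2:**
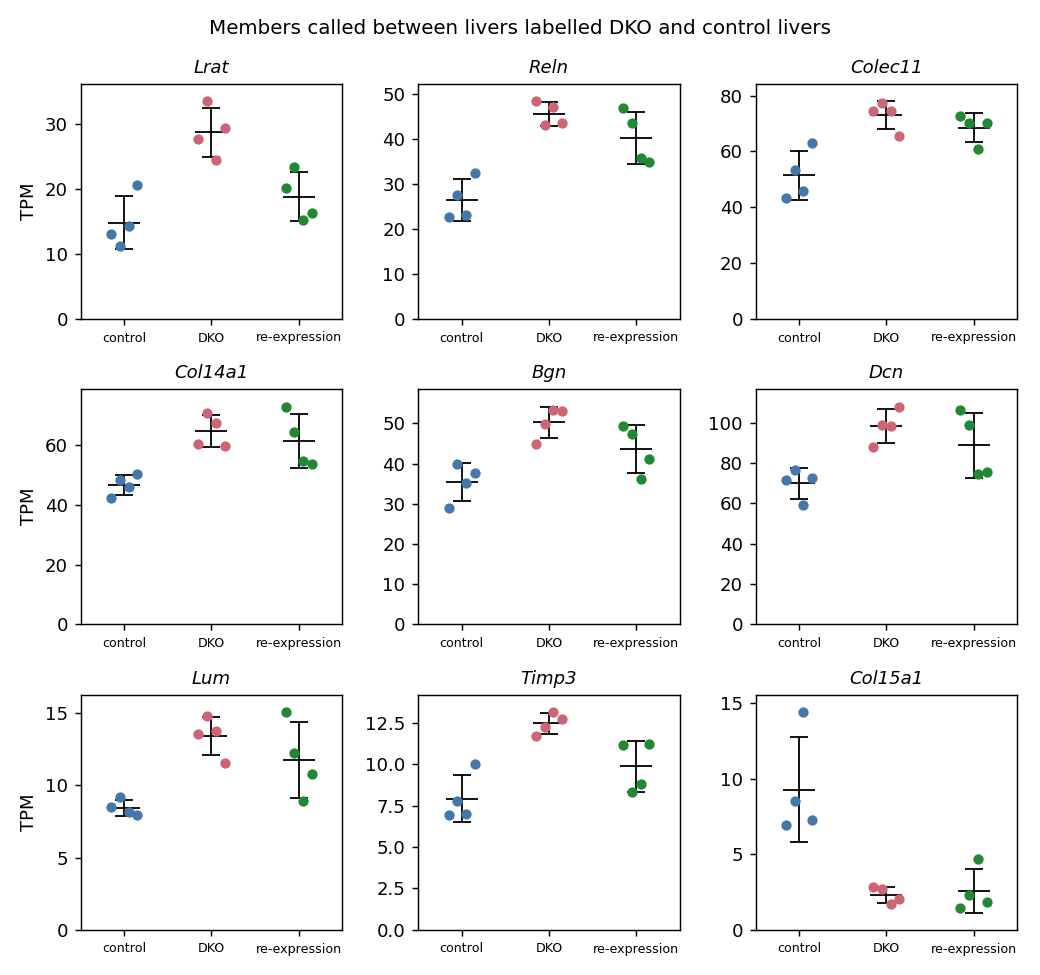
Points are TPM in single livers for the 9 members called between DKO-labelled livers (red) and control livers (blue), with re-expression livers in green. Horizontal bars are group means and whiskers ± SD (n = 4). DKO points lie above all control points in 8 panels and below them for Col15a1.

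Tissue inhibitors of metalloproteinases block the enzymes that cut matrix. Timp3 encodes the inhibitor that is itself bound to the matrix. It stood at 6.92, 7.78, 7.02 and 10.02 TPM in control livers, 11.7, 12.3, 13.2 and 12.8 in DKO-labelled livers and 11.2, 8.32, 8.78 and 11.2 in re-expression livers. Livers labelled DKO were above all others. Timp3 rose by 0.60 ± 0.13 (SE, adjusted p = 0.0224), which was not called when control replicate 1, 2 or 3, or DKO replicate 2, 3 or 4, was left out. The difference of re-expression livers from DKO-labelled livers was -0.32 ± 0.13 (adjusted p = 0.756). It shares 1733 of its 8144 exon bases with Syn3 on the opposite strand, and no source used here says whether the reads were counted by strand.

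Timp2 stood at 6.18 to 9.90 TPM in control livers and at 9.82 to 11.96 in DKO-labelled livers, and was not called. Timp1, the inhibitor that rises in fibrosis, was at or near nothing, with 0 or 1 read per library and 0 reads in 7 of 12, among them all 4 DKO-labelled livers. A count of 0 allows up to 1.68 to 1.99 TPM in these libraries (3 reads each, counting error only). Differences in Timp1 within that limit were therefore not detectable at this depth. Of the proteases, Mmp2, a gelatinase gene, ranged from 1.44 to 3.61 TPM in control livers and from 3.16 to 5.23 in DKO-labelled livers. Mmp14 encodes the membrane protease that activates the Mmp2 product. It stood at 12.2, 11.7, 10.5 and 10.9 TPM in control livers, 13.1, 13.1, 11.8 and 11.1 in DKO-labelled livers and 18.6, 12.7, 19.0 and 13.0 in re-expression livers. All re-expression livers were above all control livers for Mmp14, with no call.

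Tgfb1, the gene of the growth factor that drives collagen synthesis in stellate cells, stood at 2.92, 3.19, 3.30 and 3.87 TPM in control livers, 2.71, 2.90, 3.42 and 3.24 in DKO-labelled livers and 3.63, 2.2, 3.72 and 3.61 in re-expression livers. The groups overlapped, and the log2 difference between DKO-labelled livers and control livers was -0.09 ± 0.15 (limma adjusted p = 0.831).

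Lysyl oxidases cross-link collagen and elastin. The members Lox, Loxl1 and Loxl2 were low: Lox held 0 to 6 reads and Loxl1 1 to 11 reads per library, and neither was tested. Loxl2 ranged from 0.800 to 2.29 TPM in control livers and from 1.81 to 3.26 in DKO-labelled livers, with no call. Loxl4, a relative known from earlier results of these data, rose by 3.96 ± 0.20 in DKO-labelled livers (SE, limma adjusted p = 4.99e-07). In re-expression livers its log2 difference was -2.71 ± 0.20 from DKO-labelled livers (adjusted p = 0.000271) and 1.25 ± 0.20 from control livers (adjusted p = 0.00735). Lox, Loxl1, Loxl2 and Loxl3 together held 3.92 ± 1.46 TPM in control livers, 6.22 ± 1.22 in DKO-labelled livers and 5.51 ± 0.567 in re-expression livers. Loxl4 held 40.0% ± 10.3 of the TPM of all 5 genes in control livers, 89.3% ± 2.75 in DKO-labelled livers and 56.5% ± 9.47 in re-expression livers. Loxl3 itself differed by 0.42 in DKO-labelled livers (adjusted p = 0.241).

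Other genes of the same pathways were taken from lists of 85 genes in the table, of which 71 were tested. In DKO-labelled livers 5 of the 71 (7.04%) were called higher and 0 lower, with a median of 0.14. Of all tested genes 2.99% were called higher and 2.34% lower, 5.33% in either direction. Besides Loxl4 these were Pdgfc, Skil, Vipr1 and Serpinh1. Pdgfc encodes a growth factor that acts on mesenchymal cells, and rose from 3.17 ± 0.808 to 7.70 ± 1.02 TPM (log2 1.07 ± 0.18 SE, adjusted p = 0.00546). Re-expression livers held 5.14 ± 1.29 TPM. Skil encodes SnoN, a repressor of SMAD proteins in TGF-beta signalling, and rose from 9 ± 2.51 to 17.9 ± 0.864 TPM (0.96 ± 0.17, adjusted p = 0.0077), with 15.4 ± 1.99 in re-expression livers. Pdgfc and Skil were called in each of 25 alternatives.

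Vipr1, a receptor gene on the list of other stellate cell genes, rose by 0.46 ± 0.10 (adjusted p = 0.0189). Serpinh1, of the collagen chaperone HSP47, rose by 0.78 ± 0.20 (adjusted p = 0.0459, 0.00792 to 0.124 over the alternatives). Serpinh1 was not called in 16 of 25 alternatives, which include leaving out control replicate 1 or 2 or any single liver of the other groups. Vipr1 was not called when DKO replicate 1 or 4, or control replicate 1, was left out. By list, 1 of 11 other stellate cell genes and 1 of 15 genes of collagen synthesis were called higher, beside 2.99% of all tested genes. So were 1 of 16 of TGF-beta signalling and 1 of 5 of PDGF signalling. All 11 other stellate cell genes were above 0, with a median of 0.37 and 5 at an unadjusted p under 0.05. The medians were 0.10 for collagen synthesis, 0.0054 for TGF-beta signalling and 0.22 for PDGF signalling. Of 12 other basement membrane genes and 10 other matrix proteases 0 were called by limma, with 5 and 1 at an unadjusted p under 0.05, as were 18.4% of all tested genes. Their medians were 0.26 and -0.01.

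The re-expression livers were then set against the DKO-labelled livers, which asks what the return of REV-ERBalpha changes. This comparison shares its DKO livers with the one before. By limma 0 of 35 members were called, where 0.0724% of all tested genes were (0.0278% higher and 0.0446% lower), and voom on recovered reads also called 0. At an unadjusted p under 0.05 there were 4 members by limma (Lrat, Colec10, Timp3 and Mmp14; 6.19% of all tested genes) and 5 by voom. The groups did not overlap for 2 members, both lower in re-expression livers, Lrat and Timp3. Of all tested genes 4.25% did not overlap, 2.16% lower and 2.09% higher. Of the 35 tested members 26 were below 0 and 9 above, with a median of -0.09 beside 0.013 over all tested genes. Of all tested genes 53.3% were above 0. The 8 members called higher were chosen by the level of the same DKO-labelled livers, so their values are given as a description only. Their log2 differences from DKO-labelled livers ran from -0.60 to -0.08 and from control livers from 0.29 to 0.59.

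**Figure D3:**
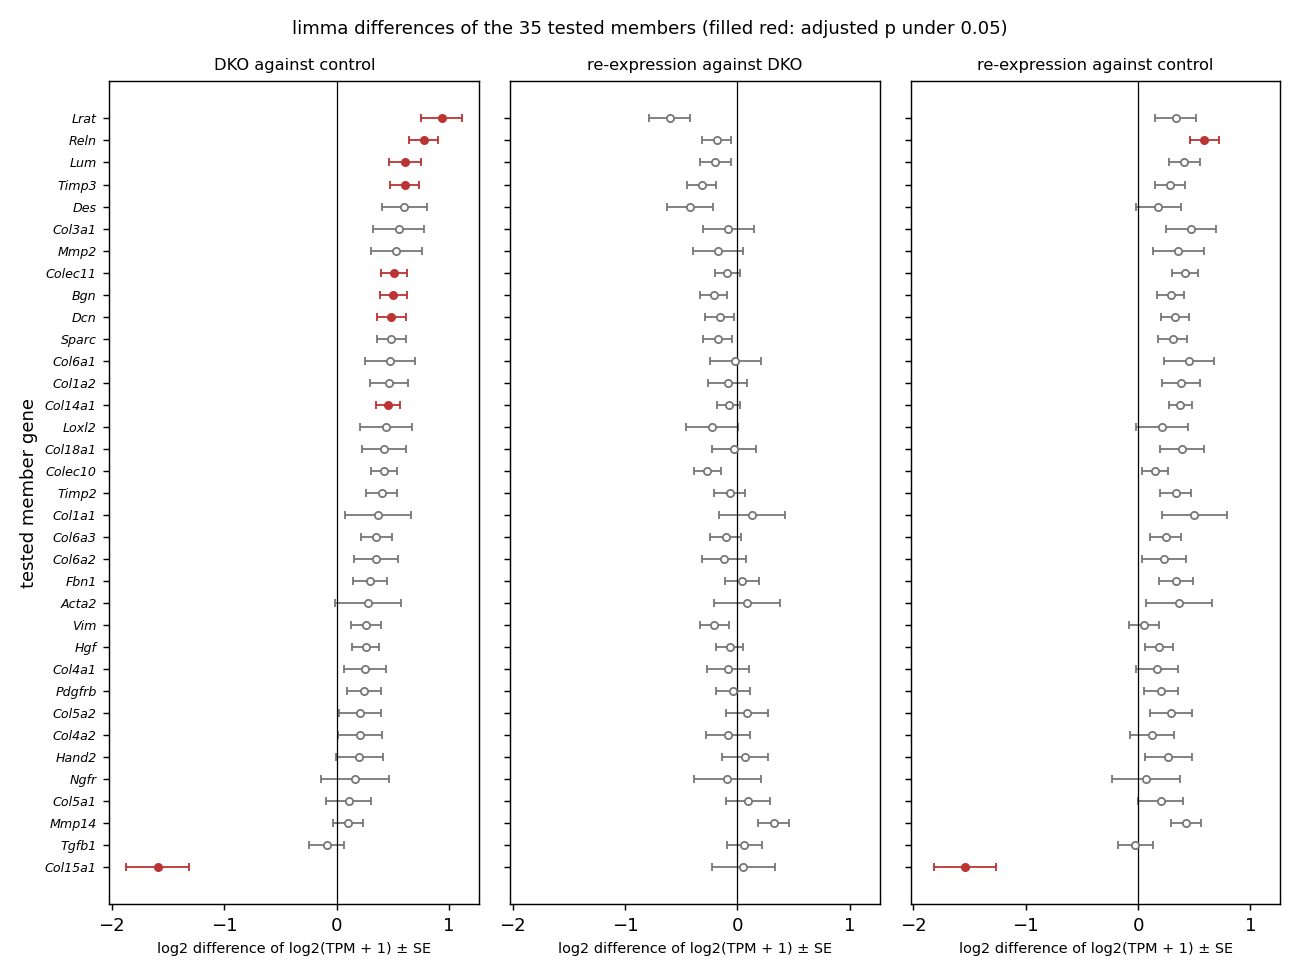
Points are limma's log2 differences of the 35 tested members with whiskers of ± SE, in 3 panels for the 3 comparisons and in 1 order. Filled red points are called. Of these, 9 stand in the left panel, 0 in the middle and 2 at right, where Reln is above 0 and Col15a1 below.

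In re-expression livers against control livers 2 of 35 members were called, Reln and Col15a1, beside 1.82% of all tested genes, 1.16% higher and 0.663% lower. The median over members was 0.29 and over all tested genes 0.0105. Above 0 were 33 of 35 members and 52.1% of all tested genes. The control livers are those of the comparison with DKO-labelled livers, so this is not a separate observation. Without control replicates 1 and 2, 27 of 35 members were above 0, with a median of 0.15 beside 0.077 over all tested genes. Control and re-expression livers did not overlap for 4 members that were higher (Reln, Col14a1, Col1a2 and Mmp14; 4.29% of all tested genes) and 1 that was lower (Col15a1; 3.0%), beside 7.28% in either direction. Between DKO-labelled livers and control livers the count without overlap was 13 higher, beside 6.13% of all tested genes, and 1 lower, beside 5.4% (11.5% in either direction). The 13 were the 8 called ones with Des, Vim, Colec10, Col6a3 and Sparc.

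The control livers spread more than the others. The median ratio of the highest to the lowest liver over the 35 tested members was 1.68 among control livers, 1.29 among DKO-labelled livers and 1.361 among re-expression livers. For 8 of 13 collagens that ratio was over 2 among control livers, and for 1 of 13 in each of the other groups. Control replicate 1 was the lowest control liver for 24 of 35 members and control replicate 4 the highest for 23. DKO replicate 3 was the highest DKO liver for 21 members and replicate 4 the lowest for 18.

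The count of 8 members called higher rests on single livers. Leaving out 1 of control replicates 1 and 3 and DKO replicates 2 and 3 gave 2 each time, Lrat and Reln. With control replicate 2, DKO replicate 1 or DKO replicate 4 left out it was 5, and over all 12 livers left out in turn it ran from 2 to 11. The count over all tested genes fell too, from 537 called higher to 332 to 524 with 1 liver left out. It was 334, 346 and 332 without DKO replicate 1, 2 and 4. The median over members was 0.29 without control replicate 1 and 0.26 without control replicates 1 and 2, the pair that stood apart from the other control livers in earlier results. Without that pair 2 members were called higher, Reln and Colec10, and 27 of 35 were above 0. The median over all tested genes was then 0.070, where it was 0.0011 with all livers. Without control replicates 3 and 4 the count was 5 and the median 0.55, beside -0.082 over all tested genes. Col15a1 was called lower in each of these fits.

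Whole liver RNA does not show which cells hold a transcript, so a change in the number of stellate cells and a change of RNA per cell cannot be told apart. The 11 stellate cell members summed to 155 to 190.4 TPM in control livers, 237 to 248 in DKO-labelled livers and 189.5 to 236 in re-expression livers. Markers of sinusoidal endothelial cells were also higher in DKO-labelled livers. The 10 genes of that list summed to 246 to 278 TPM in control livers, 293 to 362 in DKO-labelled livers and 198 to 301 in re-expression livers. In DKO-labelled livers all 10 were above 0 (median 0.31, 0 called, 6 at an unadjusted p under 0.05 beside 18.4% of all tested genes). Between re-expression and control livers 4 of these 10 were above 0 (median -0.02), while all 11 stellate cell members were (median 0.21). From DKO-labelled to re-expression livers the medians were -0.26 for the endothelial list and -0.09 for the stellate cell members. The part of the endothelial genes in the result was not tested.

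The Kupffer cell list of 10 genes went the other way in DKO-labelled livers, with a median of -0.41 and 0 called. At an unadjusted p under 0.05 there were 0, beside 18.4% of all tested genes. Its sums were 535 to 592 TPM in DKO-labelled livers and 1128, 622, 845 and 506 in control livers 1 to 4. Control replicate 4 thus lay below every DKO-labelled liver. The 7 portal fibroblast genes summed to 44.4 to 51.6 TPM in DKO-labelled livers and 51.0 to 61.5 in control livers, with 0 of 3 tested genes called. Though the sum was lower, 2 of these 3 genes were above 0 and 1 below, with a median log2 difference of 0.08. The 7 smooth muscle genes summed to at most 8.63 TPM in any liver. The 5 mesothelial genes summed to 2.23 to 5.07 TPM in control livers, 4.35 to 7.17 in DKO-labelled livers and 4.95 to 8.72 in re-expression livers, with 0 of 2 tested genes called, and their part in the result was not tested. In control livers 1 portal fibroblast and 1 smooth muscle gene were at 0. Cholangiocyte genes, 6 in number, summed to 74.5 to 104.7 TPM in control livers and 76.7 to 86.1 in DKO-labelled livers. The 6 lymphocyte genes stayed under 16.7 TPM in sum. Hepatocyte genes, 10 in number, summed to 57186 to 65303 TPM over all livers. In DKO-labelled livers 2 of the 10 were called higher, beside 2.99% of all tested genes, with a median of 0.15.

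**Figure D4:**
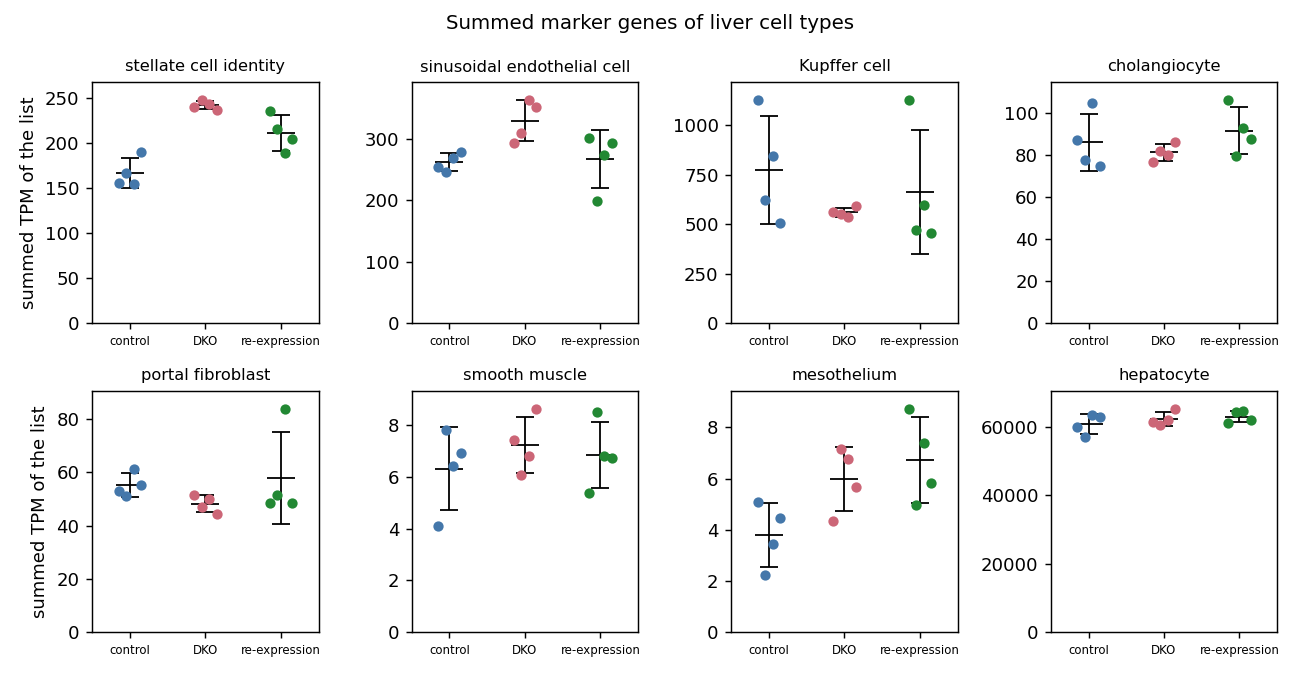
Points are the summed TPM of each marker list in single livers, with bars for group means and whiskers of ± SD (n = 4), for 8 of the lists. Livers labelled DKO lie above all control livers for the stellate cell and sinusoidal endothelial lists, and overlap them or lie lower for Kupffer cells, cholangiocytes and portal fibroblasts.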

How the data were processed

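Total RNA of each liver went into a stranded total RNA library, per the labels' protocols. Build mm10 and the tools featureCounts 2.0.1, STAR 2.7.1a, DESeq2 1.36.0, SAMtools 1.9 and bcl2fastq 2.17 are named in the processing notes of the submitters. The authors deposited TPM per gene, and their own unnamed comparisons were not used here. TPM times gene length less 199 bases gave whole multiples of a library's smallest step (tolerance 0.01 reads, 100% of values), and hence reads per library and per gene.

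Tests used limma 3.58.1 in R 4.3.3 on log2(TPM + 1), a scale that understates changes of low genes. Genes with a mean of at least 1 TPM entered, 17957 in all, with 3 group means, 9 residual degrees of freedom, a variance trend and two-sided p-values. Members not tested were Lox, Timp1, Eln and Loxl1. No tested member had a group mean under 1 TPM, and tested members held on average 7.33 to 9275 reads. P-values measure the spread between livers.

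The members, lists and control pairs were chosen with earlier results of these data known. Every member could be named with its TPM. The rule also listed Timp1, which was not tested. Fits are given for members called in any comparison, for Col1a1, Col1a2, Col3a1, Acta2, Des, Pdgfrb, Dcn and Tgfb1, and for called genes of the pathway lists, with Loxl3 and Loxl4. Of 187 list genes 185 were matched by symbol. Positions are from GENCODE M21. The procedure was tested on simulated reads. Replicate pairs gave a chi-square per degree of freedom of 4.59 to 15.6, so none differed by as little as sampling noise. Alternatives were other pseudocounts, filters, scalings, weights, a robust prior, 8 libraries per comparison, voom on recovered reads, a replicate block and livers left out. A planned summary of collagen protein sequence was not run. Python 3.11.15 and matplotlib 3.10.9 drew the figures.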

Additional observations from a re-analysis of the deposited data

Results flagged for a closer look

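In 4 of 116 groups of 4 livers a single liver lay apart from the other 3 by more than Dixon's limit for the gap over the range. Chance flags about 1 group in 20. All 4 were re-expression livers. Col6a2 was low in replicate 1 at 2.27 TPM, with the others at 2.93 to 3.03. Lox was high in replicate 1 at 0.562 TPM, from 6 reads, with the others at 0.171 to 0.179. Timp1 stood at 0 TPM in replicate 2, with 1 read in each of the others. Tgfb1 was low in replicate 2 at 2.2 TPM, with the others at 3.61 to 3.72.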

How the results depend on the processing

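Of 25 alternatives, those that moved a value follow, with the cause not tested unless fewer samples or genes entered. In DKO-labelled against control livers, 8 members were called higher; with the replicate block or without control replicates 3 and 4 there were 5, and without control replicates 1 and 2 there were 2. The 1 member called lower became 0 with a mean TPM of at least 5, where Col15a1 was not tested. The median of 0.40 became 0.22 with a pseudocount of 5, 0.26 without control replicates 1 and 2 and 0.55 without 3 and 4. Without these pairs the median over all tested genes was 0.070 and -0.082. Over all genes 537 called higher became 328 with the 8 libraries compared, and 421 called lower became 231 with 8 libraries, 182 without control replicates 1 and 2 and 644 without 3 and 4. Col1a1 turned to -0.081 without control replicates 1 and 2, and Tgfb1 to 0.00028 without 3 and 4.

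In re-expression against DKO-labelled livers, 5 genes called higher became 3 with a pseudocount of 5 or the replicate block, 13 with array weights, 9 with 8 libraries, 12 with voom, 11 without control replicates 1 and 2 and 8 without 3 and 4. The 8 called lower became 23 with weights, 5 with the block and 22 with voom. Over single livers left out Col15a1 ranged from -0.19 to 0.21, below 0 without re-expression replicate 3 or DKO replicate 3 (-0.04).

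In re-expression against control livers, 208 genes called higher became 115 with 8 libraries, and 119 called lower became 47 with 8 libraries, 64 with the block, 234 with voom and 58 without control replicates 1 and 2. The 1 member called higher became 0 without a filter, with weights, 8 libraries or the block, or without control replicates 1 and 2. The 1 called lower became 0 at a mean TPM of at least 5, with 8 libraries or without either pair. The median of 0.29 became 0.18 with a pseudocount of 5, 0.15 without control replicates 1 and 2 and 0.41 without 3 and 4. Without these pairs the median over all tested genes was 0.077 and -0.070. Tgfb1 turned to 0.064 without control replicates 3 and 4 and, over single livers left out, ranged from -0.076 to 0.11, above 0 without control replicate 4 (0.04) or re-expression replicate 2.

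Leaving out 1 liver at a time gave, for DKO-labelled against control livers, 332 to 524 genes called higher, 241 to 414 lower, 2 to 11 members higher, 1 lower and medians of 0.29 to 0.49. For re-expression against DKO-labelled livers it gave 1 to 7 higher, 4 to 8 lower, 0 members and medians of -0.12 to -0.06. Against control livers it gave 125 to 203 higher, 50 to 129 lower, 0 to 2 members higher, 0 to 1 lower and medians of 0.22 to 0.35.

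Replicate numbers are not stated to pair the livers, and the correlations do not settle it. Same-numbered livers correlated at -0.069 to 0.137, with 1 of 12 pairs over 0.1. Each pair of a control and a re-expression liver was above 0, at 0.038 to 0.137. Of the 12 libraries 6 correlated best with their own number. No scaling moved the median of all genes by 0.1 or more. Depth limits Lox, Timp1, Eln, Loxl1 and Acta2, with at most 20 reads each per library.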
